A study of Mus musculus with 4 samples.

Results

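A 3.5 Mb stretch of mouse chromosome 8 (chr8:72000000-75500000 on mm9) carried 11 of the 35 probes in the whole array set that differed at least 2-fold between Pla2g3-/- and Pla2g3+/+ lungs in the same direction in challenged and control mice and in both sources of values. The stretch was defined by probe position alone: every probe that was not a control and whose mm9 coordinate lay inside those bounds was a member. This gave 186 probes on 195 spots for 146 gene names, of 39429 probes on 43020 spots for 30892 gene names in all. The bounds themselves had been proposed from the difference between the genotype labels, so every difference between Pla2g3-/- and Pla2g3+/+ lungs below is a description and carries no test.

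The study measured total RNA of whole mouse lung on 4 Agilent 1-colour Cy3 arrays. The groups were challenged Pla2g3-/- (KO challenged), challenged Pla2g3+/+ (WT challenged), control Pla2g3-/- (KO control) and control Pla2g3+/+ (WT control) mice, with 1 array each and RNA pooled from 4 samples. In the asthma model, mice were sensitised with 10 µg of ovalbumin and 1.3 mg of alum on days 0 and 14. They then breathed 1% ovalbumin aerosol for 30 min on days 26, 27 and 28, and lungs were taken 48 h later. The same protocol text is attached to every array, so the handling of the control mice is not stated, and neither are strain, age, sex or the deleted part of Pla2g3. Because each group had 1 pool, neither the spread between mice nor that between arrays could be measured, and the number of arrays limits the precision of every value.

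Pla2g3 encodes group III secreted phospholipase A2, an enzyme that releases fatty acids and lysophospholipids from membranes. It lies on chromosome 11, not in the stretch. The chromosome 8 stretch is a gene-dense block that mixes cytokine signalling genes (Jak3, Il12rb1), an interferon-induced surface protein (Bst2), transcription and chromatin genes (Gatad2a, Sin3b, Klf2), microtubule and vesicle genes (Haus8, Map1s) and a cluster of zinc finger genes. Neighbouring genes of such a block are inherited together, whatever their functions. A microarray probe reads only the short piece of transcript that matches it, so probes of the same gene can report different values.

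The arrays were first set against their labels. At the Pla2g3 probe at chr11:3394109-3394168, the log2 level in the scanner files was 1.07 in KO challenged and 0.14 in KO control lungs, against -2.83 in WT challenged and -3.05 in WT control lungs. In the value table that probe read 0.06 in KO challenged and -0.20 in KO control lungs, against -4.60 in WT challenged and -4.66 in WT control lungs. The other Pla2g3 probe, at chr11:3393127-3393186, read -2.56 in KO challenged and -3.37 in KO control lungs, against -7.11 in WT challenged and -5.49 in WT control lungs in the scanner files. In the table it read -4.18 in KO challenged and -4.36 in KO control lungs, against -8.07 in WT challenged and -8.38 in WT control lungs. Both measured parts of Pla2g3 were therefore higher in the libraries labelled Pla2g3-/-, which goes against what a deletion of these parts would give. A probe outside the deleted part does not check the labels, and the deleted part is not given here, so KO and WT below mean the libraries labelled Pla2g3-/- and Pla2g3+/+. Alveolar markers were above background on all 4 arrays for 7 of 7 genes in each source, with a log2 summed level of 5.86 to 6.03 in the scanner files and 8.28 to 8.37 in the table. Single markers differed between the sources. Sftpc read -1.33 to -0.26 in the scanner files and 6.92 to 7.04 in the table. Ager read -5.34 to -4.84 and 3.60 to 3.73, while Abca3 lay closer, at 4.10 to 4.23 and 4.38 to 4.58. Summed endothelial markers stood at 1.37 to 1.68 in the scanner files and 5.46 to 5.71 in the table. Thyroid and parathyroid markers went the other way, at -0.76 to 1.63 and -4.62 to -4.02. Immature thymocyte markers stood apart in the scanner files: their log2 summed level was 0.17 in KO challenged, -1.22 in WT challenged, 4.23 in KO control and -1.09 in WT control lungs. In the table the same 5 markers lay between -1.93 and -1.24, with Rag1 and Rag2 not above background on any array.

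The scanner files and the authors' value table carry the same 4 names and differ in their values. Over all probes, arrays correlated at 0.986 to 0.992 within the scanner files and at 0.989 to 0.994 within the table. Between a scanner array and its namesake in the table the correlation was 0.915 to 0.923. Levels below are therefore given separately for each source, as log2 values. Scanner levels are relative to the 75th percentile of the array, and table levels are the log2 of the table's own values, whose 75th percentile lay at 1.00.

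Probes that turn out to carry the difference, and other probes of the same genes, are shown first by bases 16 to 45 of each 60-base probe, 5′ to 3′ as the files give them. They let the probes whose signal differed be told from the other probes of the same gene. Whether the amount of the matching transcript piece differed was not tested apart from the probe's signal. All lie on chromosome 8 of mm9; exon and UTR annotation of that build was not used here.
Zfp963 (chr8:72265659-72265718, minus strand): tacctcatatgtgagaaaaactctactccc
Gatad2a, different (chr8:72432484-72432543, minus strand): ctttagaaatcatttggacatgtgggagtt
Gatad2a, upstream (chr8:72432921-72432980, minus strand): atcctttttctcttttgatggacacaatct
Ocel1, upstream (chr8:73896997-73897056, plus strand): aaaccacaccagttcttccagggaataaac
Ocel1, downstream (chr8:73903201-73903260, plus strand): agattaaaacccataaacctgtaagttctt
Tmem221 (chr8:74078681-74078740, minus strand): gaaatacacacaataggccctcaatttaca
B3gnt3 (chr8:74215637-74215696, minus strand): caggagagaaaaaagtatagaggaaagaaa
Zfp961, upstream (chr8:74491960-74492019, plus strand): tgaatgtaaagtatgtgataaagcctttac
Zfp961, different (chr8:74492659-74492718, plus strand): catttcttccttacgcaaccacgagactac
Zfp961, downstream (chr8:74494052-74494111, plus strand): aggtgaaaaggaccaactgctttaggttgc
Calr3, downstream (chr8:74948462-74948521, minus strand): cactctgcatgctgagtggcccagctgcaa
Calr3, upstream (chr8:74955307-74955366, minus strand): acctgacatcgctgaggaaaacggaaaaga
Slc35e1, downstream (chr8:75002244-75002303, minus strand): tcattcagactcccaaaggggctcagtagg
Slc35e1, upstream (chr8:75005924-75005983, minus strand): ttttcgagacagggtttctctgtgtagcta

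The question put to these genes was whether Pla2g3-/- and Pla2g3+/+ lungs differed along the stretch, in challenged and in control mice. A gene was represented by its brightest probe, which lay in the stretch for 143 of the 146 names. It was called different at a log2 difference of 1 or more, if it was above background on at least 1 array of the pair. In the scanner files 13 of 133 genes were called in challenged lungs, 7 higher and 6 lower in KO. Of all genes on the array 8.15% were called, 4.19% higher and 3.96% lower. In control lungs 17 of 132 were called, 10 higher and 7 lower in KO, against 5.96% of all genes (3.59% and 2.37%). The value table had 14 of 133 in challenged lungs, 6 higher and 8 lower in KO, against 5.82% of all genes (2.11% and 3.7%). In control lungs it had 20 of 133, 5 higher and 15 lower in KO, against 5.16% (1.91% and 3.25%). In whole-lung RNA, fewer cells of a type and less RNA per cell cannot be told apart.

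Most genes of the stretch differed little between the genotype labels. The median KO minus WT log2 difference of the member genes was -0.06 in challenged and -0.05 in control lungs by the scanner, where all genes had -0.06 and -0.03. From the table it was -0.07 and -0.05, where all genes had 0.0066 and -0.0020. Taken without sign, it was 0.24 in challenged and 0.27 in control lungs by the scanner, against 0.18 in each treatment over all genes. In table values it was 0.24 and 0.23 for members, against 0.14 and 0.15 over all genes. Of the 129 genes above background on all 4 arrays in both sources, 78 stayed within 0.5 of 0 in both treatments and both sources. The same share over all genes was not computed, so this count does not show whether the stretch was quieter than the array. Among the 78 were Sin3b, a scaffold of histone deacetylase complexes, and the mitochondrial ribosome gene Mrpl34. Mrpl34 also had the only probe spotted repeatedly: its 10 spots gave a difference of -0.16 to -0.09 in challenged lungs in the scanner files, with an SD between spots of 0.025. For single spots, the Agilent spot error of a KO minus WT difference had a median of 0.20 and reached 0.34, which covers the reading of the spot only.

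**Figure D1:**
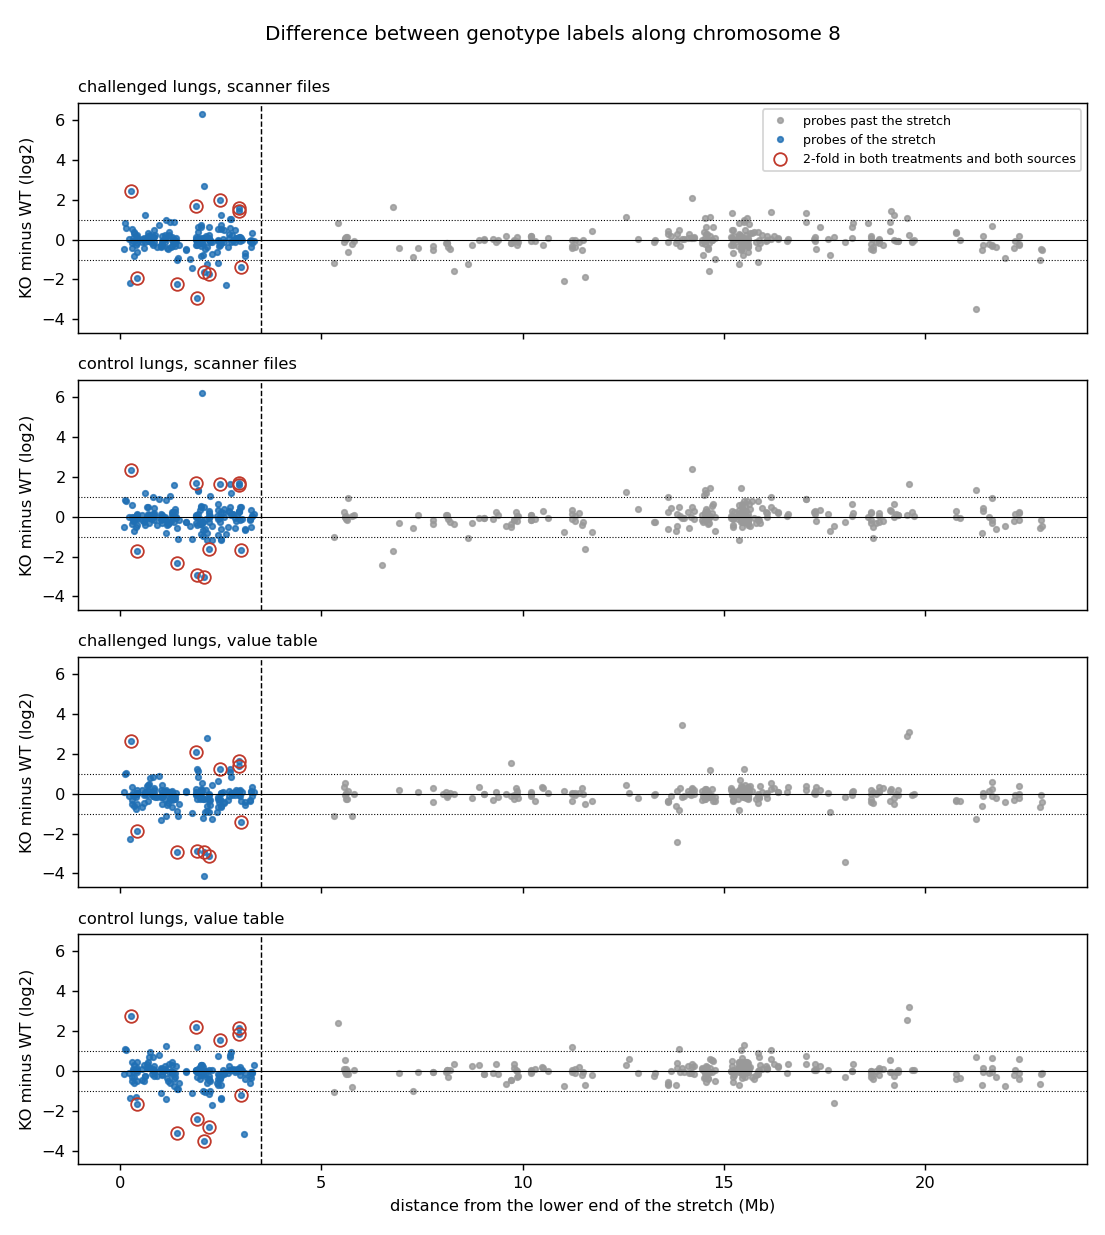
KO minus WT log2 difference (vertical axis) of each probe above background, by its distance in Mb from the lower end of the stretch (horizontal axis), for challenged and control lungs in the scanner files and in the value table. Blue points are member probes, grey points those of the neighbouring region, dotted lines mark 2-fold and the dashed line the upper end of the stretch. The 11 red circles, 5 above and 6 below 0, keep their side of 0 in all 4 panels.

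Several probes of the stretch differed in both treatments. By gene, 10 of 132 were called in the same direction in both treatments in the scanner files (6 higher and 4 lower in KO) against 1.63% of all genes (0.942% and 0.685%). The table had 10 of 132 (3 higher and 7 lower) against 2.33% (0.7% and 1.63%). With every probe counted on its own, a choice made after the data were seen, 17 of 171 were called in the scanner files against 1.59% of all probes, and 18 of 169 in the table against 2.15%. Called in both treatments and both sources were 11 of 167 probes, against 0.116% of all probes (35 of 30094). By direction these were 5 higher and 6 lower in KO, against 0.0432% and 0.0731% of all probes. By gene they were 5 of 130, against 0.0977% of all genes: Zfp963, Ocel1 and Calr3 higher, and Tmem221 and B3gnt3 lower in KO. These shares belong to the contrast that chose the stretch, so nothing is read from them.

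**Figure D2:**
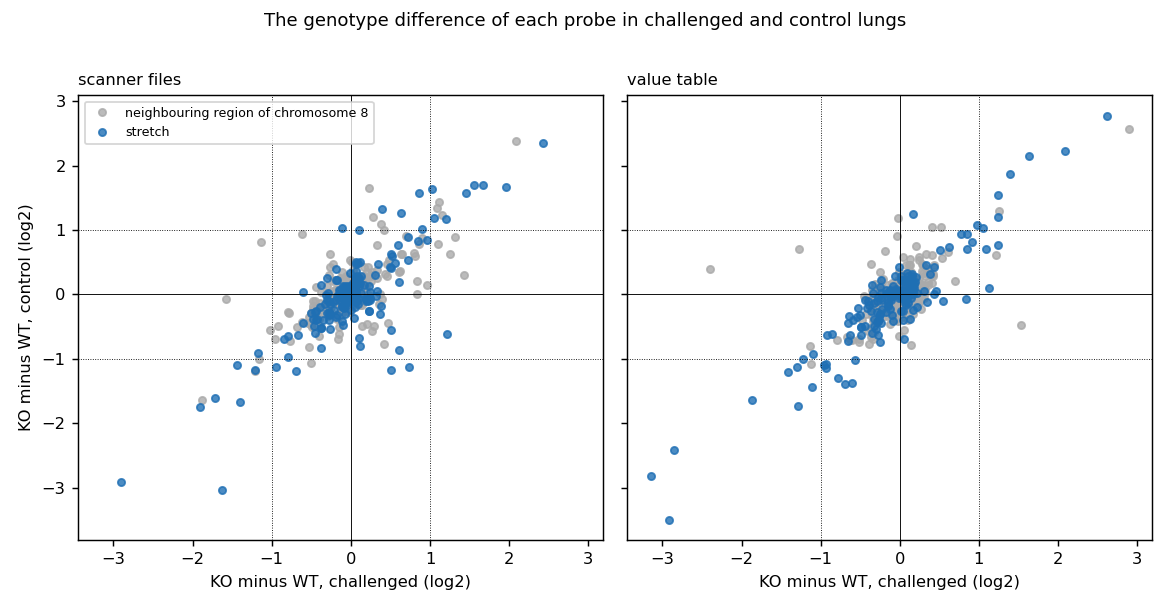
KO minus WT log2 difference in challenged lungs (horizontal axis) and in control lungs (vertical axis), one point per probe above background on all 4 arrays, in the scanner files (left) and the value table (right). Blue points are the 164 member probes in each source, grey points those of the neighbouring region, and dotted lines mark 2-fold; points in the upper right and lower left corners differed in both treatments in the same direction.

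Among genes above background on all 4 arrays, a zinc finger gene had the largest difference with KO higher in each source. This was Zfp963, read by 1 probe in the stretch and part of the zinc finger cluster at its lower end. It read -2.17 in KO challenged and -2.08 in KO control lungs in the scanner files, against -4.60 in WT challenged and -4.43 in WT control lungs. In the table it read -1.96 in KO challenged and -1.77 in KO control lungs, against -4.59 and -4.54 in the WT challenged and WT control lungs. Every KO level lay above every WT level, by 5.38- and 5.09-fold in challenged and control lungs in the scanner files and by 6.17- and 6.85-fold in the table. Both probes of Zfp868 were higher in KO, by 0.60 to 0.85 in the scanner files and by 0.98 to 1.08 in the table. Of the 8 zinc finger genes, 1 was called in both treatments in each source, and it was Zfp963 in both, against 1.63% and 2.33% of all genes. Zinc finger genes of a cluster resemble each other in sequence, so a probe may also read a related transcript, which was not tested.

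Ocel1 gave opposite answers at its 2 probes. The gene encodes a protein with a domain shared by occludin and the elongation factor ELL. Its upstream probe read 3.14 in KO challenged and 2.98 in KO control lungs, against 1.47 in WT challenged and 1.28 in WT control lungs (scanner files), so KO was higher by 3.18- and 3.26-fold. Its downstream probe read -6.28 in KO challenged and -6.46 in KO control lungs, against -3.36 in WT challenged and -3.55 in WT control lungs, so KO was lower by 7.52-fold in challenged and as much in control lungs. The table gave the same pair of directions, with log2 differences of 2.09 and 2.22 at the upstream probe and -2.86 and -2.42 at the downstream probe. Ocel1 was the only gene of the stretch with called probes in both directions.

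Gatad2a, which encodes a subunit of the NuRD chromatin remodelling complex, differed at 1 of 3 probes. The probe at chr8:72432484-72432543 read -1.17 in KO challenged and -1.18 in KO control lungs, against 0.74 in WT challenged and 0.57 in WT control lungs in the scanner files. In the table it read -0.92 and -0.75 in the KO lungs, challenged and control, against 0.95 and 0.89 in the WT lungs. That probe was thus lower in KO by 3.36- to 3.74-fold in the scanner files and by 3.12- to 3.64-fold in the table. The upstream probe differed by 0.22 and -0.11 in the scanner files and by 0.18 and 0.16 in the table. The downstream probe, the brightest of the 3, differed by -0.60 and -0.44 in the scanner files and by -0.49 and -0.50 in the table.

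Zfp961 and Slc35e1 repeated this pattern of a single differing probe. At the middle probe of Zfp961, scanner levels were -2.83 in KO challenged and -2.72 in KO control lungs, against -4.79 in WT challenged and -4.38 in WT control lungs. Its KO minus WT difference was 1.96 and 1.66 in the scanner files and 1.25 and 1.54 in the table, while the other probes of Zfp961 lay between -0.42 and -0.01. Slc35e1, of a family of nucleotide sugar transporters, read -3.95 in KO challenged and -4.10 in KO control lungs at its downstream probe, against -2.56 in WT challenged and -2.43 in WT control lungs. The differences there were -1.39 and -1.67 in the scanner files and -1.41 and -1.20 in the table. At the upstream, brighter probe of Slc35e1 they were 0.07 and 0.50, and -0.34 and 0.03. Whether that probe also reads other transcripts was not tested, so it may not show an unchanged part of Slc35e1.

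Fam32a and Ushbp1 also had probes that disagreed. The upstream probe of Fam32a was higher in KO by 1.05 and 1.18 in the scanner files and by 0.85 and 0.94 in the table, and its downstream probe lay between -0.13 and 0.06. One probe of Ushbp1 was higher in KO by 1.24 and 1.21 in the table, where its level was 1.81 in KO challenged and 2.01 in KO control lungs, against 0.57 in WT challenged and 0.80 in WT control lungs. In the scanner files that probe read between -5.76 and -5.42 and differed by -0.13 and -0.04. Over the 33 genes of the stretch with several probes in the scanner files, the span between the probes' mean differences had a median of 0.45, against 0.12 over 5793 such genes on the array. The median span of the table was 0.26 over 32 genes, against 0.13 over 5849. These spans come from the contrast that chose the stretch, so nothing is read from the comparison.

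**Figure D3:**
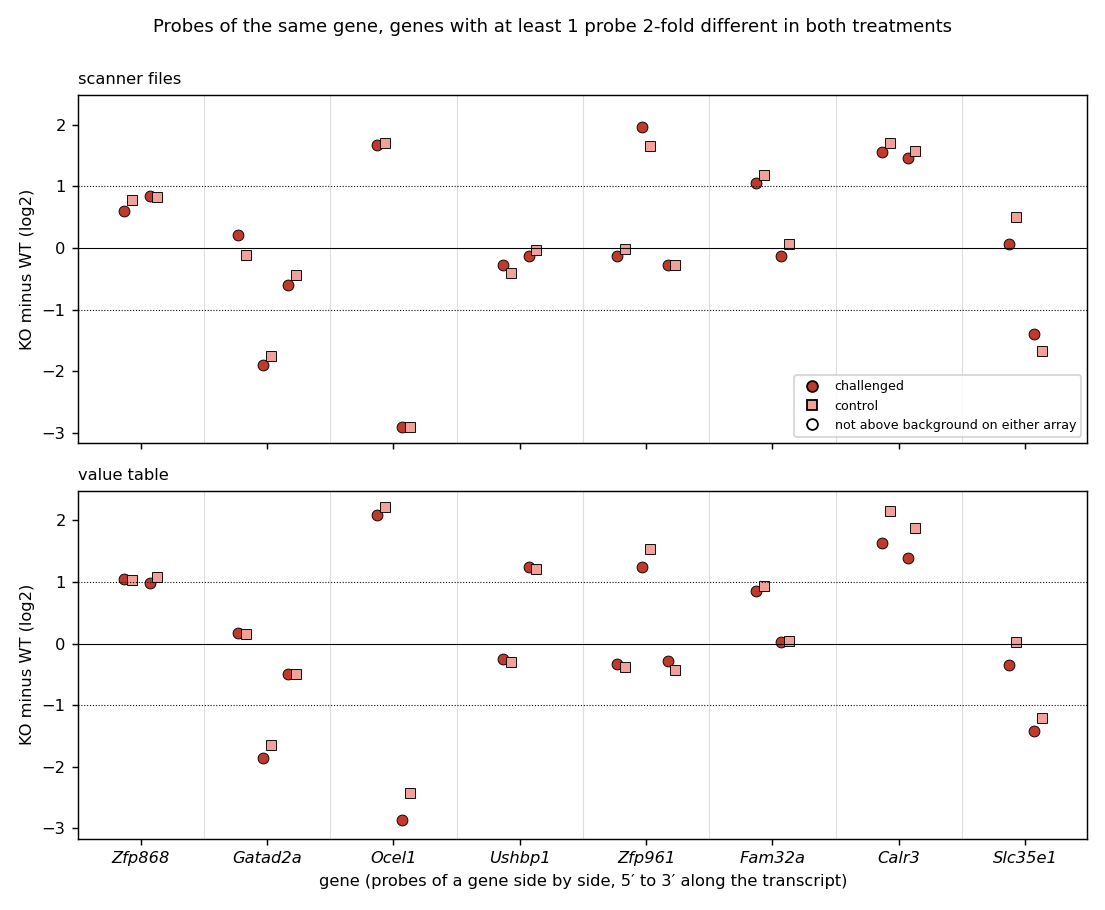
KO minus WT log2 difference (vertical axis) of every probe of the 8 genes of the stretch that have several probes and at least 1 probe called in both treatments of a source, in the scanner files (top) and the value table (bottom). Circles are challenged and squares control lungs, and probes of a gene stand side by side from 5′ to 3′; Calr3 and Zfp868 have both their probes on the KO-higher side in both sources, and Ocel1 has probes past 2-fold in both directions.

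Calr3 was the gene whose 2 probes agreed in direction past 2-fold in both sources. It encodes a calreticulin-like chaperone best known from the testis. Its downstream probe read -1.92 in KO challenged and -1.67 in KO control lungs, against -3.38 in WT challenged and -3.25 in WT control lungs in the scanner files. Its upstream probe read -2.77 in KO challenged and -2.66 in KO control lungs, against -4.34 in WT challenged and -4.35 in WT control lungs. Table values gave a log2 difference of 1.39 and 1.87 at the downstream probe and of 1.63 and 2.16 at the upstream probe. Over both probes and sources Calr3 was 2.63- to 4.46-fold higher in KO, with no KO level inside the WT range of its source.

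Tmem221 and B3gnt3, each with 1 probe in the stretch, were lower in KO on every comparison. Their values describe that probe, and other parts of their transcripts had no probe in the stretch. Tmem221 encodes a transmembrane protein, and read -4.17 in KO challenged and -5.17 in KO control lungs, against -2.54 in WT challenged and -2.13 in WT control lungs (scanner files). In the table it read -5.40 in KO challenged and -5.42 in KO control lungs, against -2.48 in WT challenged and -1.93 in WT control lungs. Tmem221 was thus lower in KO by 3.09- and 8.22-fold in the scanner files and by 7.55- and 11.3-fold in the table. B3gnt3, a glycosyltransferase that extends sugar chains on glycoproteins, read -2.85 in KO challenged and -3.02 in KO control lungs in the scanner files, against -1.13 in WT challenged and -1.41 in WT control lungs. In the table B3gnt3 read -5.88 in KO challenged and -5.64 in KO control lungs, against -2.73 in WT challenged and -2.82 in WT control lungs. The size of the B3gnt3 difference depended on the source: 3.30- and 3.06-fold in the scanner files, and 8.83- and 7.07-fold in the table.

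**Figure D4:**
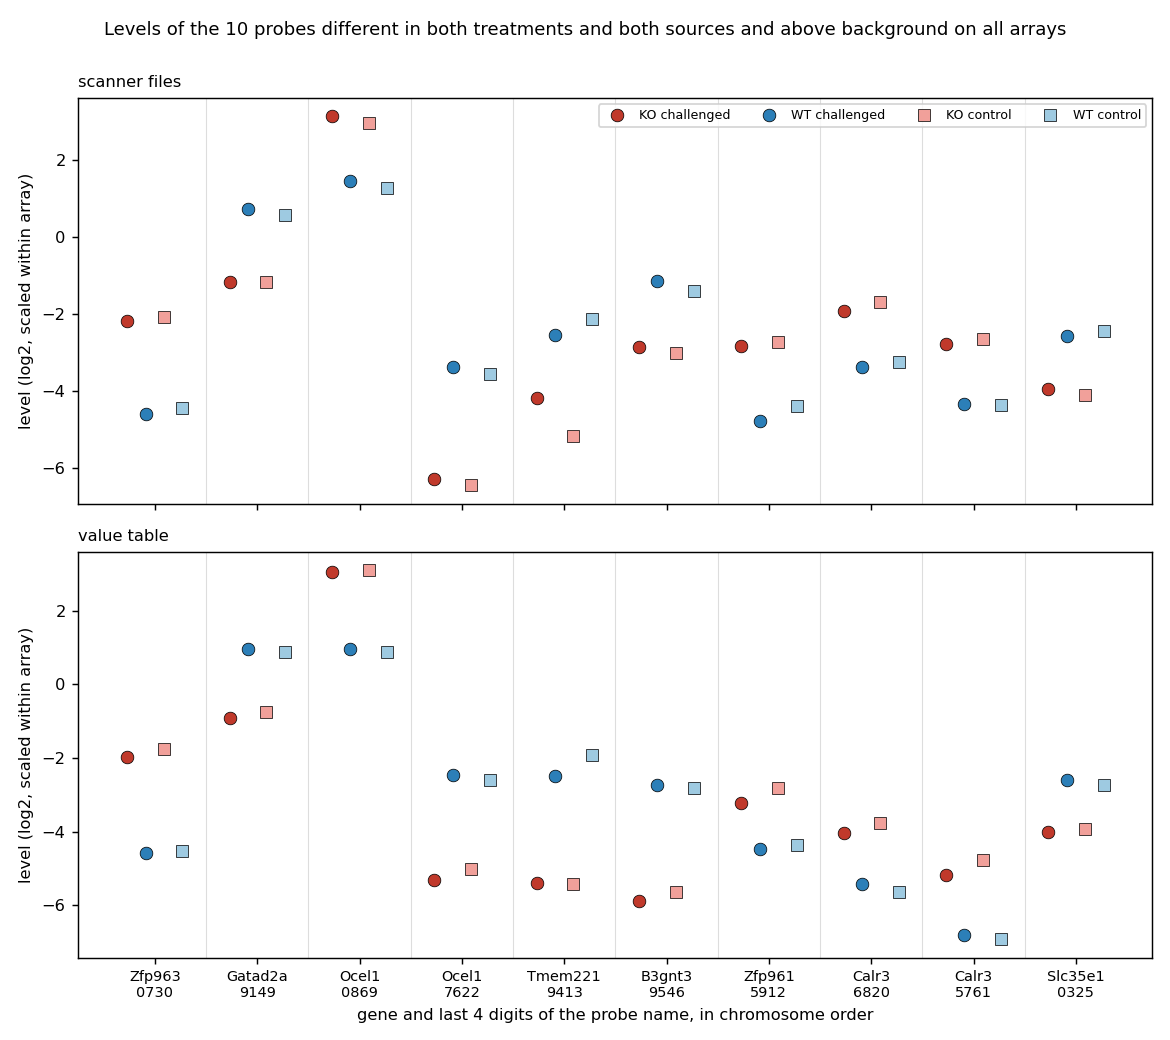
Log2 level (vertical axis) of the 10 probes called in both treatments and both sources and above background on all 4 arrays of each (horizontal axis, in chromosome order), on each array, in the scanner files (top) and the value table (bottom). Red symbols are KO and blue symbols WT, circles challenged and squares control; in each probe both KO points lie on one side of both WT points.

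Of the 20 cytokine and immune signalling genes tested in the stretch, 1 was called higher in KO in both treatments in the scanner files, against 0.942% of all genes, and 2 were called lower in the table, against 1.63%. The one that was higher was Hsh2d, an adaptor protein of blood cells with an SH2 domain. Hsh2d read -1.30 in KO challenged and -1.36 in KO control lungs, against -2.33 in WT challenged and -2.99 in WT control lungs in the scanner files. In the table its difference was 1.09 in challenged and 0.70 in control lungs, so the direction was shared and the control difference lay under 2-fold.

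The genes that were lower in the table were Bst2 and Lrrc25. Bst2, or tetherin, is induced by interferon and holds budding viruses at the cell surface. It read 1.86 in KO challenged and 2.11 in KO control lungs in the table, against 3.09 in WT challenged and 3.12 in WT control lungs. In the scanner files it read 2.39 in KO challenged and 1.68 in KO control lungs, against 3.18 in WT challenged and 2.65 in WT control lungs. Bst2 was thus lower in KO in all 4 comparisons, by 1.74- to 2.34-fold. Lrrc25, a leucine-rich repeat gene of myeloid cells, differed by -1.11 and -1.43 in the table and by 0.12 and -0.80 in the scanner files.

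The cytokine receptor genes depended on the source. At the brighter probe of Il12rb1, the receptor chain shared by interleukin 12 and interleukin 23, the scanner files read -3.01 in KO challenged and -2.15 in KO control lungs, against -3.87 in WT challenged and -3.72 in WT control lungs. In the table the same probe was lower in KO, by -0.25 and -0.74, and its other probe lay between -0.41 and 0.01 in both sources. Jak3, the kinase of the common gamma chain receptors, differed at its downstream probe by 0.23 and -0.26 in the scanner files and by -0.93 and -1.15 in the table. Its other probe differed less in the table, by -0.35 averaged over the treatments, and by 0.40 in the scanner files. Table levels of the downstream Jak3 probe were -2.06 in KO challenged and -2.17 in KO control lungs, against -1.13 in WT challenged and -1.02 in WT control lungs. T cell markers moved alongside in the table: their log2 summed level was 1.88 in KO challenged and 1.75 in KO control lungs, against 2.60 in WT challenged and 2.44 in WT control lungs. In the scanner files the T cell sum was 2.03 in KO challenged, 1.78 in WT challenged, 3.83 in KO control and 2.06 in WT control lungs, so KO control stood highest there, as it did for Il12rb1. At the downstream probe of Jak3 it stood lowest in the scanner files, at -2.38. The other Jak3 levels there were -1.72 in KO challenged, -1.95 in WT challenged and -2.12 in WT control lungs. The part of T cells in the Jak3 and Il12rb1 values was not tested.

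Lpar2, a receptor for the lysophospholipid lysophosphatidic acid, was lower in KO at 1 of its 2 probes, without reaching 2-fold. That brighter probe read -4.68 in KO challenged and -3.80 in KO control lungs, against -3.83 in WT challenged and -3.10 in WT control lungs in the scanner files. The differences were -0.84 and -0.70 there and -0.63 and -0.63 in the table. The other probe of Lpar2 differed by 0.32 in challenged and -0.02 in control lungs in the scanner files. In the table it was not above background in challenged lungs and differed by 0.30 in control lungs. Of the 14 genes listed for lipid and general metabolism, 0 were called in both treatments in either source, where 1.63% (scanner files) and 2.33% (table) of all genes were. At those shares a list of this size would hold fewer than 1. Slc27a1, a fatty acid transporter that was not on that list, differed by -0.45 and -0.60 in the scanner files and by -0.93 and -1.08 in the table. Gdf15, a stress-induced cytokine, was higher in KO by 0.96 and 0.85 in the scanner files and by 0.17 and 1.25 in the table.

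Among the 10 matrix and cell surface genes tested, the scanner files called Hapln4 higher and B3gnt3 and Colgalt1 lower in both treatments, and the table called B3gnt3 and Tmem59l lower. Of all genes 1.63% were called in this way by the scanner and 2.33% in the table. Colgalt1, which adds galactose to collagen, read -0.25 in KO challenged and -0.26 in KO control lungs, against 0.96 in WT challenged and 0.92 in WT control lungs in the scanner files. In the table its difference had the same sign and was smaller, -0.86 and -0.62. Hapln4, a hyaluronan link protein best known from the brain, was 2.31- and 2.25-fold higher in KO in the scanner files. In the table Hapln4 was not above background in KO lungs. Tmem59l differed by -1.29 and -1.13 in the table and by -0.33 and -0.15 in the scanner files.

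Of the 18 trafficking and cytoskeleton genes, 3 were called in both treatments in the scanner files (Ocel1 and Calr3 higher, Haus8 lower) and 2 in the table (Ocel1 and Calr3), against 1.63% and 2.33% of all genes. Haus8, a subunit of the augmin complex that nucleates spindle microtubules, read -0.12 in KO challenged and 0.19 in KO control lungs, against 1.32 in WT challenged and 1.29 in WT control lungs in the scanner files. In the table the differences were -0.96 and -1.10. Map1s, a microtubule-associated protein, was close to 2-fold lower in KO in each comparison, at -0.94 and -1.13 in the scanner files and -1.09 and -0.93 in the table. Of the 23 transcription, chromatin and RNA genes, 0 were called in both treatments in either source when the brightest probe stood for the gene, since the differing probe of Gatad2a is not its brightest; the shares of all genes are the same 1.63% and 2.33%. Jund, an AP-1 transcription factor and one of the brightest members, differed by 0.36 and -0.31 in the scanner files and by 0.09 and 0.33 in the table.

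Ccdc194, a coiled-coil gene, showed the widest gap between the sources. In the scanner files it read -3.54 in both KO lungs and was not above background in either WT lung, so KO was at least 19.4-fold higher in challenged and at least 17.7-fold higher in control lungs, with the lowest signal above background on the WT array as the bound. In the table it was above background on all 4 columns, at -5.25 in KO challenged and -5.60 in KO control lungs, against -5.79 in WT challenged and -5.49 in WT control lungs. An unnamed probe at chr8:74276108-74276167 was lower in KO by 1.28 and 1.73 in the table and by 0.70 and 1.18 in the scanner files.

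Position along the stretch was uneven. In steps of 0.5 Mb, the probes called in both treatments in the scanner files numbered 2 of 21 from 72 Mb, 1 of 24, 1 of 33, 3 of 19, 5 of 34, 4 of 28 and 1 of 12 at the upper end. In the table they numbered 4 of 21, 0 of 24, 3 of 33, 3 of 18, 5 of 34, 2 of 27 and 1 of 12 in the same order. Both sources thus had calls at the lower end and from 73.5 Mb on, and at most 1 from 72.5 to 73 Mb. The counts per step are small and belong to the contrast that chose the stretch, so no unevenness is read from them. Among probes above background on at least 1 scanner array, the last members inside the lower end were LOC105243204, Zfp868 and Zfp869, and Zfp868 differed by 0.82 to 1.08. Outside it, Gm9495, Gm10033 and the transcript ENSMUST00000072427 lay between -0.49 and 0.18. Somewhat further below, the Zfp930 probe at chr8:71752820-71752879 was called lower in KO in both treatments and both sources. Near the upper end, F2rl3 and Sin3b lay between -0.15 and 0.34 inside the bound. Outside it came Gm11033 at -1.16 to -1.01, the intestinal homeobox gene Isx at 0.84 to 2.63 and Hmgxb4 at -0.13 to 0.31. The nearest of these, Gm11033, lies at chr8:77308618-77308677, well beyond the upper end of the stretch.

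The neighbouring region, from the upper end of the stretch to 95 Mb, had 257 probes for 209 genes. By gene in challenged lungs, the scanner files called 9.77% in the stretch, against 11% in the neighbouring region (20 of 182) and 8.15% of all genes, so the neighbouring region had the larger share. In control lungs they called 12.9% in the stretch, against 8.74% there (16 of 183) and 5.96% of all genes. The table called 10.5% in challenged and 15% in control lungs in the stretch, against 6.15% and 5% in the neighbouring region (11 of 179 and 9 of 180). In both treatments 7.58% of the stretch was called in each source, against 4.44% of the neighbouring region in the scanner files (8 of 180) and 2.29% in the table (4 of 175). In both treatments and both sources 1 of 221 probes was called there, that of Gm11033, which was lower in KO. In a window of 3.5 Mb around Pla2g3 on chromosome 11, 3 of 76 probes were called in this way, and 2 of them are probes of Pla2g3 itself. Of the 35 such probes on the array, 14 lay on chromosome 8 and 8 on chromosome 11, and those on chromosome 8 outside the stretch were Zfp930 below it and Gm11033 and Lpcat2 above it.

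Across probes, the KO minus WT difference in challenged lungs followed that in control lungs in the stretch with a Pearson r of 0.81 by the scanner and 0.92 in the table (164 probes each). The same value was 0.67 and 0.54 for the neighbouring region (219 and 224 probes), 0.74 and 0.96 around Pla2g3 (76 probes in each source) and 0.35 and 0.66 over all probes. Probes are not independent replicates, the arrays are the same for every probe, and the few large differences weigh most in r. In bins of 3.5 Mb with at least 20 probes, the bin from 73.5 to 77 Mb held the highest share called in both treatments on chromosome 8 in each source: 14.0% of 93 probes in the scanner files and 12.1% of 91 in the table. The next highest were 6.41% from 84 to 87.5 Mb in the scanner files and 10.1% from 94.5 to 98 Mb in the table.

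**Figure D5:**
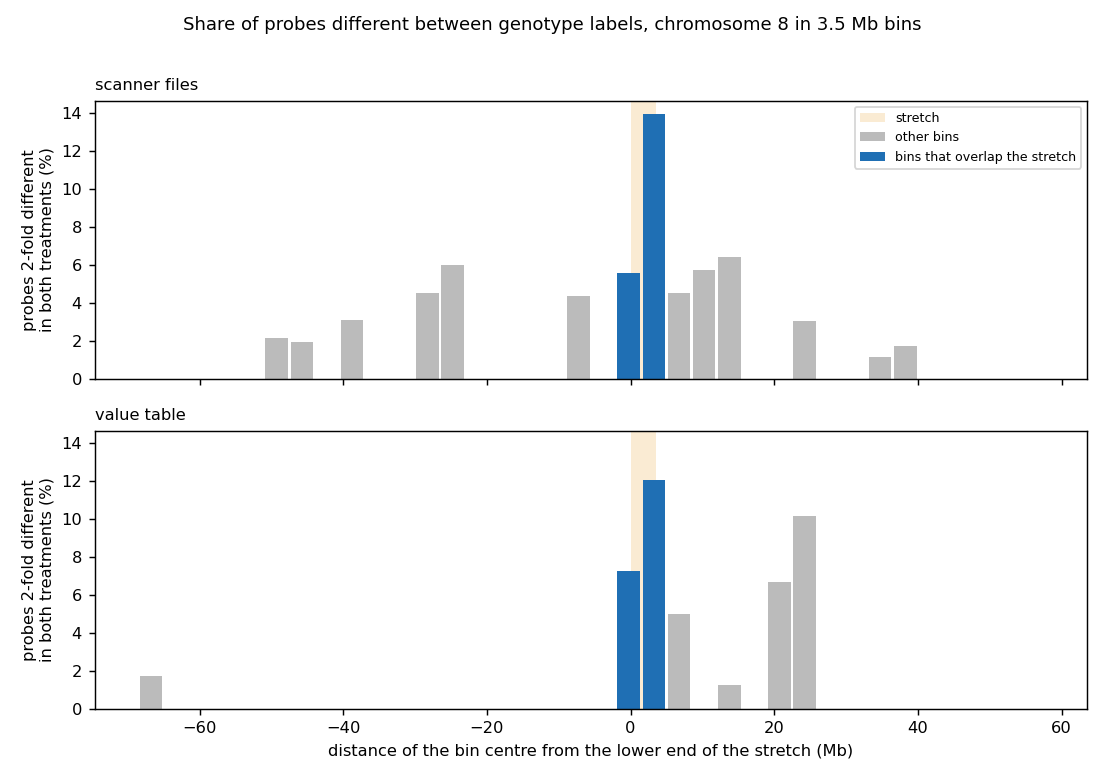
Share of probes called in both treatments (vertical axis, percent) in consecutive 3.5 Mb bins of chromosome 8 with at least 20 probes, by the distance of the bin centre in Mb from the lower end of the stretch (horizontal axis), in the scanner files (top) and the value table (bottom). Bins that overlap the stretch are blue and the stretch is shaded; the tallest bar in each source is the blue one at 14.0% and 12.1%.

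The called probes were dimmer than the other members and close to them in median base composition. Their median GC content was 45% (KO higher) and 43.3% (KO lower) in the scanner files, against 45% for member probes not called in both treatments. In the table it was 41.7% (KO higher) and 45% (KO lower), against 45%. The lowest GC content there was 26.7% among the KO-higher probes and 31.7% among those not called. Their median log2 level was -3.32 (KO higher) and -2.68 (KO lower) against -0.84 in the scanner files, and -3.71 and -3.81 against -0.88 in the table. They lay on both strands.

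The effect of challenge was not used to choose the stretch and was tested over all genes, averaged over the genotypes, with limma and Benjamini-Hochberg adjustment. Of the member genes, 0 of 133 passed in the scanner files and 0 of 134 in the table, where 0% of all genes passed in each source. At an unadjusted limma p under 0.05 there were 6 of 133 members by the scanner, where 2508 of all 26187 genes were. In the table there were 5 of 134 members, where 2272 of all 25882 genes were. The lowest adjusted p of a member in limma was 0.513 by the scanner and 0.566 in the table. The fit has 1 residual degree of freedom, and on simulated data it missed moderate changes and called large ones in part, so the absence of calls says little about moderate changes. By size, 2 members reached 2-fold in each source, against 5.19% and 3.26% of all genes. These were Slc5a5 (higher) and B930053N02Rik (lower after challenge) in the scanner files, each above background on 3 of 4 arrays. In the table they were Unc13a (higher) and an unnamed probe (lower), each of which entered the test through the only array where it was above background. With arrays below background in each average, no size is given for these 4.

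Among members above background on all 4 arrays, those with the largest challenge effects included immune genes and genes of other roles. Several of their values depended on the source. Cyp4f18, which in mouse neutrophils inactivates leukotriene B4, had an averaged challenged minus control difference of 0.69 by the scanner and 0.63 in the table (adjusted p in limma 0.645 and 0.584). Its brightest probe, which stands for the gene, was not the same in the 2 sources; the 2 probes share 59 bases. Behind the average of Cyp4f18 stood 1.60 in KO and -0.22 in WT lungs in the scanner files, and 0.99 in KO and 0.28 in WT lungs in the table. Lrrc25 had 0.72 and 0.59, and was higher after challenge in both genotypes in both sources. Bst2 had 0.62 by the scanner and -0.14 in the table, and Lpar2 had -0.81 and 0.01. The sign turned between the sources for Fcho1 (-0.99 by the scanner, 0.18 in the table), Ankle1 (-0.27 and 0.74) and Il12rb1 (-0.50 and 0.62). The summed neutrophil markers stood at 6.44 in KO challenged, 5.97 in WT challenged, 5.51 in KO control and 5.86 in WT control lungs in the scanner files, and between 5.92 and 6.15 in the table. The sum gives most weight to bright markers such as Csf3r, which was lower in KO in both scanner pairs. S100a8, S100a9 and Cxcr2 were higher in KO in both. By their mean log2 level, the 4 markers stood at 3.26 in KO challenged and 1.84 in WT challenged lungs in the scanner files. That mean was 1.12 in KO control and 0.53 in WT control lungs, so the order of the controls depended on the measure. The part of neutrophils in the Cyp4f18 and Lrrc25 values was not tested.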

How the data were processed

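Per the submitters' processing notes and the file headers, Agilent Feature Extraction 11.5.1.1 made the deposited spot intensity values, with no normalization between arrays. The value table deposited by the authors holds a linear signal per probe and array, made in a way that no source states. Scanner values were put on the log2 scale and the array's 75th percentile of non-control probes was subtracted. Table values were taken to log2 as given. Above background meant Agilent's own flag, or, for the value table, 5 times the median of the negative control features. The 75th percentile of the scanner arrays lay at 1808 to 1986 intensity units, and 79.2% to 81.9% of spots were above background. On an array the number of arrays limits precision.

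Spots of a probe were averaged, and a gene was its probe with the highest mean log2 level. Of the member probes, 147 were named by accession and 9 by symbol through a RefSeq gene table, and 30 kept the name in the files. The reference places 2 member names on another chromosome. Some member names and sequences are not reported here, and their probes stay in the counts. Of all spots, 20 marked as uneven were left out, none of them a member. Where 1 side was below background, folds are bounds against the lowest signal above background on that array. The challenge effect used limma 3.58.1 (R 4.3.3) with genotype and treatment as additive terms. This fit was tested on simulated data, where it missed moderate changes. With 1 array per group, p-values measure only the spread left by that model, which may be technical. Columns of other samples numbered 0.

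Members, bounds and gene lists were chosen with earlier results of these data known. Named genes were members called in both treatments of a source, the 8 highest and 8 lowest per source, those at the ends, up to 4 per role list, up to 5 bounds per direction, genes with probes of opposite sign and the 5 largest challenge effects per direction. Gatad2a, Zfp961, Slc35e1, Fam32a, Ushbp1, Slc27a1 and Jund were added after their values were seen. Alternatives were other scalings, background corrections, filters, fold limits, the mean of a gene's probes, the other source and every probe on its own.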

Additional observations from a re-analysis of the deposited data

Results flagged for a closer look

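At 4 probes of the stretch, above background on all 4 arrays, the scanner difference between the genotype labels had opposite signs in challenged and control lungs, with at least 1 side past 2-fold. Of these, 3 are overlapping probes at Cyp4f18: they share 49 to 59 bases and so are close to a single measurement. KO minus WT was 1.21 in challenged and -0.61 in control lungs at the first, a difference between treatments of 1.82. It was 0.51 and -1.17 at the second, a difference of 1.68. At the probe named only A_55_P2038452 it was 0.73 and -1.13, a difference of 1.87. In the table the differences of these probes were 0.05 and -0.69, -0.69 and -1.40, and -0.61 and -1.37. At Fcho1, an endocytosis gene, KO minus WT was -0.11 in challenged and 1.02 in control lungs in the scanner files, a difference of -1.14, and -0.56 and -1.01 in the table. The difference between treatments was not tested for any of them, since each group had 1 array.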

How the results depend on the processing

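The counts of members called in challenged, in control and in both treatments stayed within 1.5 times their value in both sources under quantile normalization, median scaling, the mean of probes, either background filter and, in the scanner files, normexp with quantile normalization. The share of all genes called moved more: it was 1.92%, 1.83% and 0.493% (challenged, control, both) with normexp and 4.52%, 3.69% and 1.1% with the filter for all 4 arrays, in place of 8.15%, 5.96% and 1.63% in the scanner files. In the table that filter gave 3.16%, 3.02% and 1.86%, in place of 5.82%, 5.16% and 2.33%. The fold limit moved the members' counts. At 1.5-fold the scanner files gave 29, 31 and 22, against 16.8%, 13.4% and 4.75% of all genes, and the value table gave 33, 35 and 27, against 11.46%, 11.1% and 4.58%. At 3-fold they gave 6, 6 and 5, against 3.98%, 2.72% and 0.437%, and 6, 7 and 4, against 3.33%, 2.87% and 1.27%. Called in both treatments and in both sources were 5 of 130 genes, against 0.0977% of all genes. Every probe was also counted on its own, which was chosen after the data were seen. The scanner files then gave 23 of 173, 26 of 171 and 17 of 171, against 7.82%, 5.80% and 1.59% of all probes. The value table gave 24 of 171, 28 of 171 and 18 of 169, against 5.43%, 4.74% and 2.15%. In the neighbouring region the scanner counts were 7 challenged and 4 control with normexp, against 1.92% and 1.83% of all genes. With the filter for all 4 arrays the challenged count was 13, against 4.52%. The table in place of the scanner files gave 11 of 179 and 9 of 180, against 5.82% and 5.16%. The table's own control count there was 5 with the filter for all 4 arrays, against 3.02%. For Cyp4f18 in challenged lungs the table gave -0.69, at another probe than the scanner files; the scanner's probe read 0.05 in the table. Of the other named genes called in the scanner files, the table turned, in control lungs, Ankle1 to -0.072, Ccdc194 to -0.11, Fcho1 to -1.01, Gm3336 to -0.62, Il12rb1 to -0.74 and Hapln4 to -0.27, which is a bound since KO was not above background. The mean of its probes turned Ocel1 to -0.62 and -0.60 in the scanner files and to -0.38 and -0.10 in the table, since its probes are opposite in sign. The cause of the other changes was not tested. No member passed the challenge test under any alternative. With a variance trend, 119 of all 25882 genes passed in the table and 1 gene in the scanner files. With normexp 1 gene passed in the scanner files, and under the other alternatives no gene did. The lack of members among so few genes says little about the stretch. No array could be left out and no paired analysis was possible because each group had 1 array.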
